A study of Homo sapiens with 9 samples.

Results

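The PRA1 family of small membrane proteins is represented in the count table by 3 genes, PRAF2, RABAC1 and ARL6IP5, out of 64253 listed. All 3 passed the filter on low counts and were among the 16366 genes tested. PRAF2 was chosen because it was, beside FOXF1, the only nuclear gene other than mitochondrial pseudogenes that was called higher with the FOXF1 plasmid than with the empty vector. RABAC1 and ARL6IP5 were added as its relatives, whatever their values. PRA1 proteins span the membrane of the endoplasmic reticulum (ER) or the Golgi apparatus. The founding member, RABAC1, binds prenylated Rab GTPases, the switches that mark the compartments of membrane traffic. It helps to release them from GDI, the protein that holds them soluble in the cytosol. PRAF2 and ARL6IP5 are mainly ER proteins, and ARL6IP5 is known for holding back the glutamate transporter encoded by SLC1A1.

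RNA was sequenced from EPC2, a cell line labelled as normal squamous epithelium of the human esophagus, in 3 groups of 3 libraries. Untreated cells received neither DNA nor lipid. The second group received an empty vector with Lipofectamine 2000, a lipid that carries DNA into cells, and the third a FOXF1 plasmid with the same lipid. FOXF1 is a forkhead transcription factor. The labels name neither the promoter of the plasmid nor the share of cells that took it up, so every level is an average over transfected and untransfected cells, and fewer cells with a transcript cannot be told apart from less of it per cell. The design text calls the libraries biological triplicates. Each p-value sets a difference between groups against the spread between libraries within groups.

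The libraries held 34390666 to 39973289 counts. FOXF1 itself had 1, 0 and 0 reads in untreated, 0, 0 and 6 in empty vector and 367, 184 and 141 in FOXF1 plasmid replicates. The defining markers of the labelled cell type were mostly absent. Of 18 squamous genes 4 reached 1 CPM (the read count scaled to the library total) in any library, and TP63, SPRR1A, SPRR1B, SPRR3 and CRNN had 0 reads throughout, while SFN and S100A2 were abundant, at 106 and 168 CPM on average. All 6 simple epithelial markers reached it. The mitochondrially encoded share of counts was 20.9% ± 2.0 in untreated, 11.2% ± 0.76 in empty vector and 14.1% ± 0.52 in FOXF1 plasmid libraries (SD, n = 3).

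PRAF2 (ENSG00000243279) lies on chromosome X, 49071156 to 49074071, minus strand, on GRCh38. The gene WDR45, which encodes an autophagy protein, is annotated on the same strand over 49071470 to 49101170, and exons of the pair share 757 of the 1736 exon bases of PRAF2 (43.6%). Reads that fall there could be assigned to either gene or to none, so the PRAF2 count is uncertain by that part. RABAC1 (ENSG00000105404) lies on chromosome 19, 41956681 to 41959390, minus strand. It shares 367 of its 1999 exon bases with AC010616.2, an annotated gene that the count table does not list. ARL6IP5 (ENSG00000144746) lies on chromosome 3, 69084944 to 69106066, plus strand, and shares no exon base with another gene annotated on its strand. The longest annotated transcripts contain 60.4% G and C for PRAF2, 64.3% for RABAC1 and 39.4% for ARL6IP5.

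The 250 bases before the RefSeq start of PRAF2 and of ARL6IP5 (GRCh38.p14) are shown because these members moved in opposite directions on transfection. RABAC1 had no entry in the promoter table. The PRAF2 window is chrX:49074003-49074252 on the minus strand and falls inside the annotated span of WDR45, and the ARL6IP5 window is chr3:69084687-69084936 on the plus strand. Capitals mark matches, on either strand, to CACGTG (the palindromic E-box) or GGGCGG (the GC box).
PRAF2: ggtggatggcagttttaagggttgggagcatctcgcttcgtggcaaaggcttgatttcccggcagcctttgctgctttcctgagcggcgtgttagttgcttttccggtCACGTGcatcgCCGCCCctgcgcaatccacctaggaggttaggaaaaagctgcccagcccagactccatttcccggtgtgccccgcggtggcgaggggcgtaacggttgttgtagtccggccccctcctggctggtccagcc
ARL6IP5: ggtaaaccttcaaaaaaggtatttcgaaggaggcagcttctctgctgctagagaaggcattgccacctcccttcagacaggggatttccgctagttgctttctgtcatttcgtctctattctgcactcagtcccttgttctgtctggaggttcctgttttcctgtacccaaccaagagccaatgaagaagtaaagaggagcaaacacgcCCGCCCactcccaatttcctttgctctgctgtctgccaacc
The PRAF2 window holds the E-box letters at -142 and the GC box letters at -131 from the start, and the ARL6IP5 window holds the GC box letters at -41. Among 35116 promoter windows of the same length, 6.34% hold the E-box letters and 42.6% the GC box letters. Neither window holds the forkhead core TGTTTAC (2.98% of windows), the amino acid response core TGATGNAA (3.14%) or the ER stress response element (0.074%), each read on both strands. These motifs were chosen with the sequences in view. G and C make up 61.2% of the PRAF2 window and 49.6% of the ARL6IP5 window, beside a median of 58% over all windows.

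In untreated cells PRAF2 and RABAC1 were abundant transcripts and ARL6IP5 a modest one. Per kilobase of annotated exon, on library sizes scaled by TMM (trimmed mean of M-values), PRAF2 stood at 114.8 ± 7.22, RABAC1 at 69.3 ± 2.72 and ARL6IP5 at 2.31 ± 0.303 CPM (SD, n = 3). Averaged over the 9 libraries, PRAF2 was above 97%, RABAC1 above 95.7% and ARL6IP5 above 54.7% of 13236 protein coding genes. The order of the first pair depended on the length used. Per kilobase of the longest transcript, PRAF2 stood at 149.5 ± 9.4, RABAC1 at 168.7 ± 6.61 and ARL6IP5 at 2.77 ± 0.364 CPM in untreated cells.

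Levels from here on are CPM on TMM-scaled library sizes, not divided by length. PRAF2 stood at 208.5, 204.6 and 185.1 CPM in replicates 1 to 3 of untreated cells, at 132.3, 114.8 and 121.7 in empty vector replicates and at 152, 168.5 and 149.5 in FOXF1 plasmid replicates. No group overlapped another, with untreated cells highest and empty vector cells lowest. The gap between the plasmid groups belongs to the values by which PRAF2 was chosen. How many of all genes separate by group was not counted, here or for the genes below. RABAC1 stood at 143.5, 139.3 and 132.7 CPM in untreated, at 132, 120.8 and 122.9 in empty vector and at 136.2, 133 and 137.6 in FOXF1 plasmid replicates. Its libraries kept within a narrow band, and the FOXF1 plasmid libraries lay inside the range of the untreated ones. ARL6IP5 stood at 5.00, 5.93 and 6.52 CPM in untreated, at 9.01, 10.1 and 11.2 in empty vector and at 7.78, 6.50 and 10.1 in FOXF1 plasmid replicates. All empty vector libraries lay above all untreated ones, whereas FOXF1 plasmid replicate 2, at 6.50 CPM, fell among the untreated libraries. The half-width of exact 95% counting intervals was at most 2.77% of a PRAF2 level, 2.93% of a RABAC1 level and 15.1% of an ARL6IP5 level. ARL6IP5 rests on 176 to 480 reads per library.

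**Figure D1:**
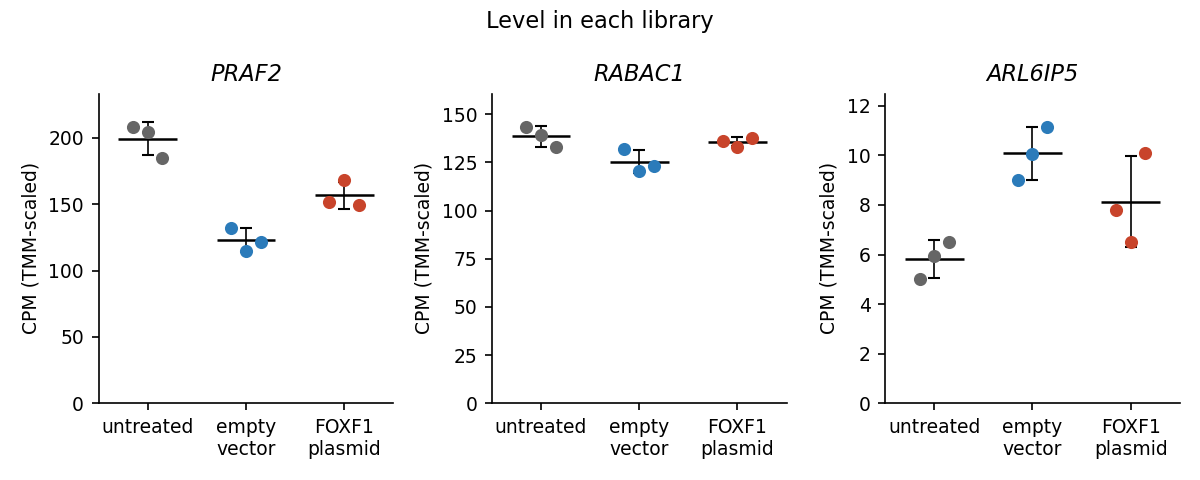
Level of each gene in each library, in CPM on TMM-scaled library sizes (vertical axis from 0), by group. Points are libraries, horizontal lines are means and bars are SD (n = 3). PRAF2 falls from 199.4 CPM in untreated cells to 122.9 in empty vector cells and stands at 156.7 in FOXF1 plasmid cells, RABAC1 stays between 120.8 and 143.5 CPM, and ARL6IP5 runs the other way, from 5.82 to 10.1 and 8.13 CPM.

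PRAF2 fell and ARL6IP5 rose in transfected cells, while RABAC1 did not pass the test. This contrast sets the mean of both transfected groups against untreated cells and does not reuse the difference by which PRAF2 was chosen. It does share the transfected libraries and the estimate of the spread with the contrast that chose PRAF2. PRAF2 had a log2 fold change of -0.52 ± 0.06 (SE), a fall to 69.6% of its untreated level (adjusted p = 1.45e-07, edgeR quasi-likelihood test). All 6 transfected libraries lay below all 3 untreated ones. ARL6IP5 rose by 0.64 ± 0.14 (SE; adjusted p = 0.00135), a 1.56-fold rise, and 5 of 6 transfected libraries lay above the highest untreated library. The log2 fold change of RABAC1 was -0.09 ± 0.05 (adjusted p = 0.284), with an approximate 95% interval of -0.19 to 0.02. Of all 16366 genes, 18.5% were called in this contrast at an adjusted p below 0.05, 9.51% as higher and 9.02% as lower. Of the family 1 of 3 was called lower and 1 of 3 higher. The number called over all genes, 3034, became 1864 without untreated replicate 1.

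The calls of PRAF2 and ARL6IP5 in this contrast stood under all 19 alternatives. Scaling by library total alone, with no correction for composition, moved the median over all genes up by 0.197 on the log2 scale. PRAF2 then had -0.33 (adjusted p = 4.6e-05), ARL6IP5 0.83 (0.00038) and RABAC1 0.11 (0.0859), so RABAC1 changed sign with the scaling and with offsets for GC content and transcript length (0.05, adjusted p = 0.534). With those offsets PRAF2 had -0.44 and ARL6IP5 0.52. Under total scaling 93.7% of the calls were higher, against 51.3% here, and 30.6% of all genes were called higher and 2.05% lower. Mitochondrially encoded transcripts took a smaller share of counts in the transfected libraries, as given above. Without mitochondrial genes and their pseudogenes the log2 fold changes were -0.53 for PRAF2, 0.64 for ARL6IP5 and -0.09 for RABAC1.

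Marker sums of other cell types were read on the same TMM scale. The 9 fibroblast markers, of which COL1A2 and LUM had no read, summed to 2072 to 2351 CPM in untreated, 2265 to 2427 in empty vector and 2435 to 2757 in FOXF1 plasmid libraries. COL3A1, DCN and PDGFRA had 15, 7 and 8 reads over the 9 libraries. Within that list COL1A1 had 0.35 on transfection (adjusted p = 0.000215, edgeR quasi-likelihood test), PDGFRB 0.46 (1.75e-05) and THY1 -0.19 (0.0195). The 18 squamous markers summed to 239 to 267, 256 to 301 and 288 to 315 CPM in the same order of groups. Nearly all of that sum came from S100A2 and SFN, which went opposite ways. S100A2 had 0.50 on transfection (adjusted p = 9.47e-07, edgeR quasi-likelihood test) and SFN -0.18 (0.0552, not called). The 6 simple epithelial markers summed to 4055 to 4685, 3444 to 3866 and 3952 to 4207 CPM. The 5 leukocyte markers, with PTPRC, CD3E and LYZ at 0 reads, summed to 8.57 to 9.86, 9.67 to 11.1 and 10.2 to 11.6 CPM, nearly all from CD14, which was not called (0.23, adjusted p = 0.14). The 5 endothelial markers summed to less than 1 CPM in every library. The part of these markers in the changes of the family was not tested.

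Each plasmid was also set against untreated cells on its own. Against untreated cells PRAF2 had log2 fold changes of -0.70 ± 0.07 in empty vector and -0.35 ± 0.07 in FOXF1 plasmid cells, given as values because these contrasts share libraries with the one that chose it. ARL6IP5 rose by 0.79 ± 0.16 with the empty vector (adjusted p = 0.000441), where 19.6% of genes were called, 10.2% as higher and 9.37% as lower. With the FOXF1 plasmid it had 0.48 ± 0.16 and did not pass (adjusted p = 0.0533), where 8.52% of genes were called, 4.63% as higher and 3.89% as lower. That near miss turned into a call under 10 of 20 alternatives, with an adjusted p of 0.0252 without FOXF1 plasmid replicate 2 and of 0.37 at the other end of the libraries left out. RABAC1 had -0.15 ± 0.06 in empty vector (adjusted p = 0.104) and -0.03 ± 0.06 in FOXF1 plasmid cells (0.838). Without empty vector replicate 1 the first of these was called (adjusted p = 0.0474). Both contrasts share the untreated libraries.

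**Figure D2:**
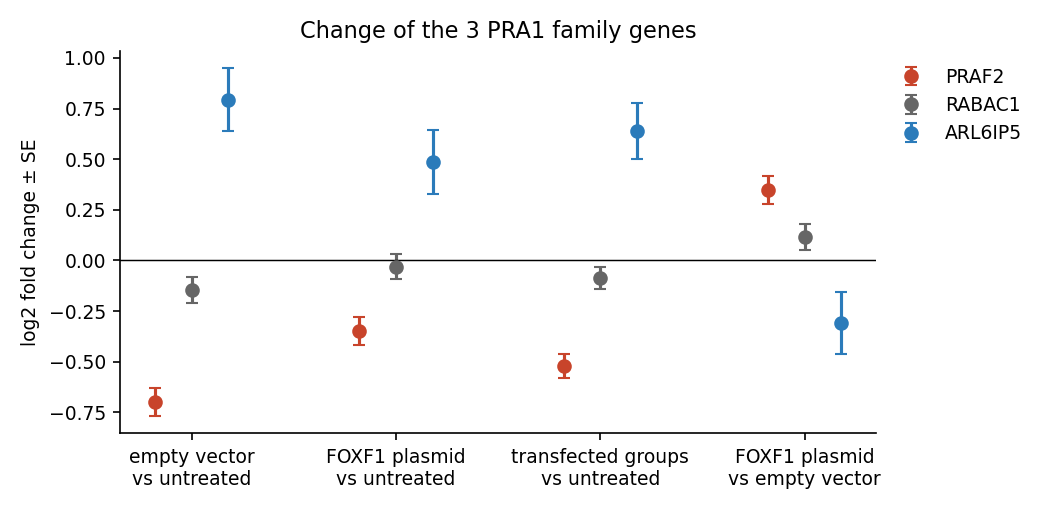
Log2 fold change of PRAF2, RABAC1 and ARL6IP5 (points, with bars of 1 SE on the vertical axis) in each of 4 comparisons (horizontal axis). PRAF2 lies at -0.70, -0.35 and -0.52 and ARL6IP5 at 0.79, 0.48 and 0.64 against untreated cells, and at 0.35 and -0.31 where FOXF1 plasmid and empty vector are compared.

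The family members can also be set against each other within a library, which needs no scaling between libraries. The ratio of PRAF2 to RABAC1 counts was 1.44 ± 0.0392 in untreated, 0.981 ± 0.0271 in empty vector and 1.16 ± 0.0967 in FOXF1 plasmid libraries (SD, n = 3). It lay between 1.39 and 1.47 in untreated and between 0.95 and 1.27 in the 6 transfected libraries. The ratio of PRAF2 to ARL6IP5 counts was 34.9 ± 6.65, 12.3 ± 2.06 and 20.1 ± 5.58 in the same order. That of RABAC1 to ARL6IP5 was 24.2 ± 4.21, 12.6 ± 1.89 and 17.2 ± 3.43, with the highest transfected library at 20.5 and the lowest untreated one at 20.4. Transfected minus untreated, the log2 ratios differed by -0.44, -1.15 and -0.72. These ratios restate the levels above, were added after those had been seen and are given without a test.

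**Figure D3:**
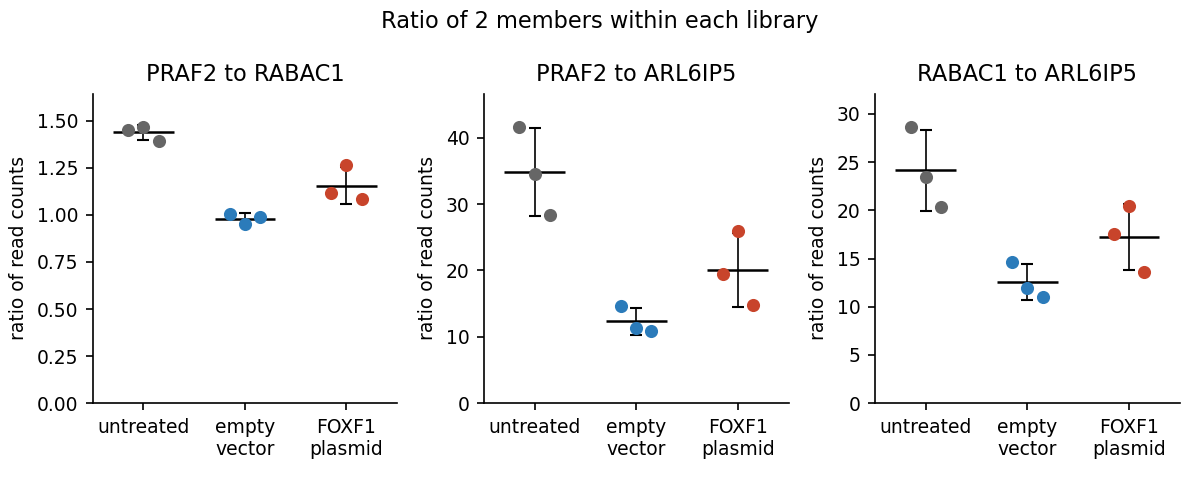
Ratio of the read counts of 2 family members within each library (vertical axis from 0), by group. Points are libraries, lines are means and bars are SD (n = 3). The ratio of PRAF2 to RABAC1 lies between 1.39 and 1.47 in untreated cells and at or below 1.27 in all transfected libraries.

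FOXF1 plasmid over empty vector is the contrast from which PRAF2 was taken, so its value here is a description. PRAF2 was at 156.7 ± 10.3 CPM in FOXF1 plasmid and 122.9 ± 8.85 in empty vector cells, a log2 fold change of 0.35 ± 0.07 or 1.27-fold. With both plasmids it stayed below the 199.4 ± 12.5 CPM of untreated cells. The contrast called 9 of 16366 genes (0.055%), all higher, at an adjusted p below 0.05, and PRAF2 was the last of them, at 0.0391. The next genes outside the threshold that are not mitochondrially encoded were SH3BGRL3 (0.0643), with 589 ± 40 against 466.5 ± 45 CPM, and UCP2 (0.0643), with 153.4 ± 8.18 against 120.5 ± 12.8 CPM. They were singled out after their values were seen. By size of fold change PRAF2 ranked 1047th from the highest of the 16366 genes. The mitochondrial share of counts, 14.1% against 11.2%, was also higher in FOXF1 plasmid libraries, and without mitochondrial genes and pseudogenes the PRAF2 value was 0.34.

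PRAF2 left that called list under 10 of 20 alternatives. Without FOXF1 plasmid replicate 2 it was 0.29 (adjusted p = 0.815) and without empty vector replicate 2 it was 0.30 (0.674). It also left without untreated replicate 2, empty vector replicate 3 and FOXF1 plasmid replicates 1 and 3 (adjusted p = 0.0714, 0.117, 0.0811 and 0.0528). With scaling by library total alone it was 0.25 (adjusted p = 0.274) and with GC and length offsets 0.22 (0.244). The number of genes called was 23 without untreated replicate 1, 16 without untreated replicate 3, 326 without empty vector replicate 1, 2 without empty vector replicate 2 and 1 without FOXF1 plasmid replicate 2. In the FOXF1 plasmid libraries FOXF1 stood at 9.12, 5.41 and 3.76 CPM and PRAF2, in the same order, at 152, 168.5 and 149.5. A relation between these levels was not tested.

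**Figure D4:**
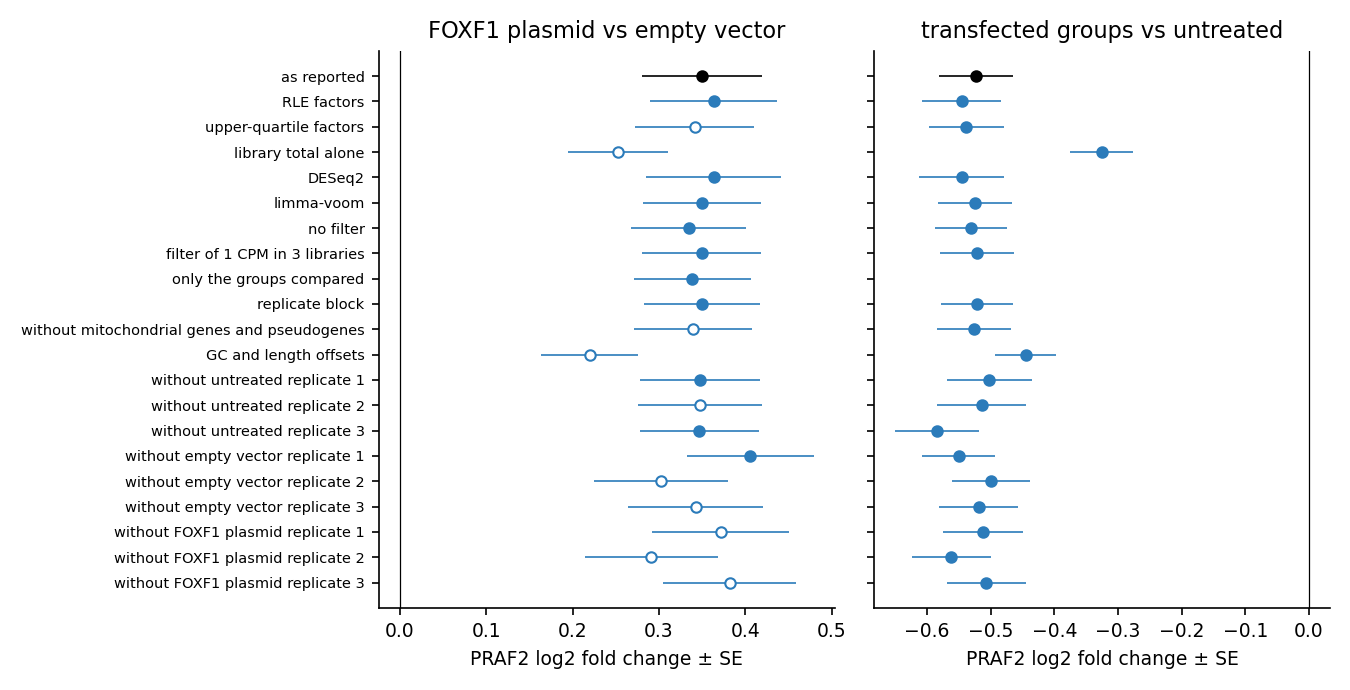
Log2 fold change of PRAF2 (horizontal axis, bars of 1 SE) under each alternative (vertical axis), for FOXF1 plasmid over empty vector on the left and for the transfected groups against untreated cells on the right. Filled points have an adjusted p below 0.05 and open points do not. On the left 10 of 20 alternatives are open and all lie above 0, and on the right all 19 are filled and lie between -0.58 and -0.33.

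The relatives were not chosen from this contrast and could be tested in it. For RABAC1 the log2 fold change was 0.12 ± 0.06 (adjusted p = 0.579; approximate 95% interval -0.01 to 0.24), with 135.6 ± 2.36 against 125.2 ± 5.98 CPM. Its 3 FOXF1 plasmid libraries lay above its 3 empty vector libraries, but with GC and length offsets the value was -0.05 (adjusted p = 0.908). For ARL6IP5 it was -0.31 ± 0.15 (adjusted p = 0.536; interval -0.61 to -0.01), with 8.13 ± 1.83 against 10.1 ± 1.08 CPM and overlapping groups. Without FOXF1 plasmid replicate 2, its lowest library of that group, the value was -0.18. Neither relative was called in this contrast after adjustment over all genes tested. The unadjusted p was 0.0764 for RABAC1 and 0.0522 for ARL6IP5 (edgeR quasi-likelihood test).

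PRA1 proteins act on Rab GTPases, and the genes of the Rab cycle were read from lists of regulators and of Rab genes. None of the 14 regulators, 49 tested Rab GTPases, 8 YIP family genes (membrane proteins of the early Golgi), 17 ER-shaping genes or 13 reported partners was called by the edgeR quasi-likelihood test between FOXF1 plasmid and empty vector cells. The lists had, with an unadjusted p below 0.05, 2, 4, 3, 2 and 2 members in that order, beside 9.43% of all genes. DESeq2 called 1 Rab GTPase and 1 YIP family gene as higher. Medians were between -0.09 and -0.02, beside -0.01 over all genes.

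On transfection, 1 regulator of the Rab cycle rose and 3 fell among 14, beside 9.51% and 9.02% of all genes, with a median log2 fold change of -0.07 beside 0.03 over all genes tested. GDI2, which keeps Rab proteins soluble, had 0.09 ± 0.07 (adjusted p = 0.471), and 0.28 with a call under total scaling (0.0148). RABIF, a chaperone of nucleotide-free Rab proteins, had -0.35 (adjusted p = 0.0314), and RABGGTA, a subunit of the enzyme that prenylates Rab proteins, -0.18 (0.0466). TBC1D20, an ER-anchored GTPase-activating protein of RAB1, had 0.21 (0.0335). The calls of RABIF, RABGGTA and TBC1D20 were lost under 5, 9 and 8 of 19 alternatives, and RABGGTA turned to 0.017 with scaling by library total alone.

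Among 49 tested Rab GTPases 11 rose and 4 fell (median 0.14), beside 9.51% and 9.02% of all genes. Under total scaling 21 were called higher and 1 lower, beside 30.6% and 2.05% of all genes. Without untreated replicate 1 the counts were 5 and 2, and with GC and length offsets 7 fell. RAB11A, of recycling endosomes, stood at 127, 141 and 114 CPM in untreated, at 81.1, 76.9 and 83.3 in empty vector and at 89.6, 79.4 and 82.5 in FOXF1 plasmid replicates. It fell by 0.63 ± 0.06 (adjusted p = 1.27e-08), by more than PRAF2, and kept its call under all 19 alternatives. RAB4B, of early endosomes, had -0.42 (adjusted p = 0.0188) and RAB34 -0.22 (0.00516), and both calls were lost with scaling by library total alone and without untreated replicate 1. Among Rab genes at a mean log2 CPM of 1 or more, the largest rises were of RAB20 (0.73, adjusted p = 6.47e-05), RAB8B (0.64, 0.0118) and RAB21, an endosomal Rab (0.53, 0.00477), and that of RAB8B was not called without untreated replicate 1. The Rab genes on the list of reported partners did not pass: RAB1A had -0.14, RAB3A 0.02, RAB5A 0.14 and RAB6A 0.21 (adjusted p = 0.202, 0.945, 0.466 and 0.0825). RAB1A was called lower with GC and length offsets (-0.27), and RAB5A was called higher with scaling by library total alone (0.34). RAB6A was called higher under 4 alternatives, scaling by library total alone (0.40), a replicate block (0.21) and leaving out empty vector replicate 1 or FOXF1 plasmid replicate 1 (0.25 each).

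YIP family proteins, which like the PRA1 family are membrane partners of Rab proteins, moved in both directions. YIPF5 rose by 0.66 ± 0.11 (adjusted p = 8.9e-05), from 8.89 ± 0.703 CPM to 15.5 ± 2.71 in empty vector and 12.7 ± 1.07 in FOXF1 plasmid cells. All its transfected libraries lay above all untreated ones. YIPF4 had 0.33 (adjusted p = 0.0498) and YIF1B -0.16 (0.0331), calls lost under 12 and 8 of 19 alternatives, and YIF1B turned to 0.034 with scaling by library total alone. In all 2 of 8 tested members rose and 1 fell (median 0.05), beside 9.51% and 9.02% of all genes.

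Among 17 ER-shaping genes, 2 rose and 3 fell (median 0.02), beside 9.51% and 9.02% of all genes, and under total scaling 9 were called higher, beside 30.6% of all genes. RTN3, a reticulon that curves ER tubules, fell by 0.46 ± 0.06 (adjusted p = 1.83e-06), from 213 ± 17.4 CPM to 148 ± 14.5 in empty vector and 161 ± 2.84 in FOXF1 plasmid cells. REEP5 fell by 0.38 (adjusted p = 7.49e-05) and REEP2 by 0.31 (0.000359), and only the second of these was not called with total scaling (-0.11). ARL6IP1, another ER membrane protein named for the same small GTPase as ARL6IP5, rose by 0.49 ± 0.10 (adjusted p = 0.000709), from 38 ± 5.78 CPM to 56.3 ± 10.3 and 50.6 ± 8.84. RTN4 rose by 0.25 (0.0049). Without untreated replicate 1 the rise of RTN4 was not called, and without empty vector replicate 1 the list had 5 rises.

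Of 15 genes for reported partners of PRA1 proteins, CFTR had 0 reads in all libraries. Of the 13 tested members 1 rose, ARL6IP1, described above, and 1 fell (median 0.02), beside the same shares of all genes. BCL2L1, an inhibitor of apoptosis, had 0.16 (adjusted p = 0.0874), and was called higher under 5 of 19 alternatives, with 0.36 under total scaling and 0.24 without untreated replicate 1. SLC1A1, the transporter that ARL6IP5 holds back, was read at 5 to 36 counts per library and had 0.67 ± 0.44 (adjusted p = 0.317).

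**Figure D5:**
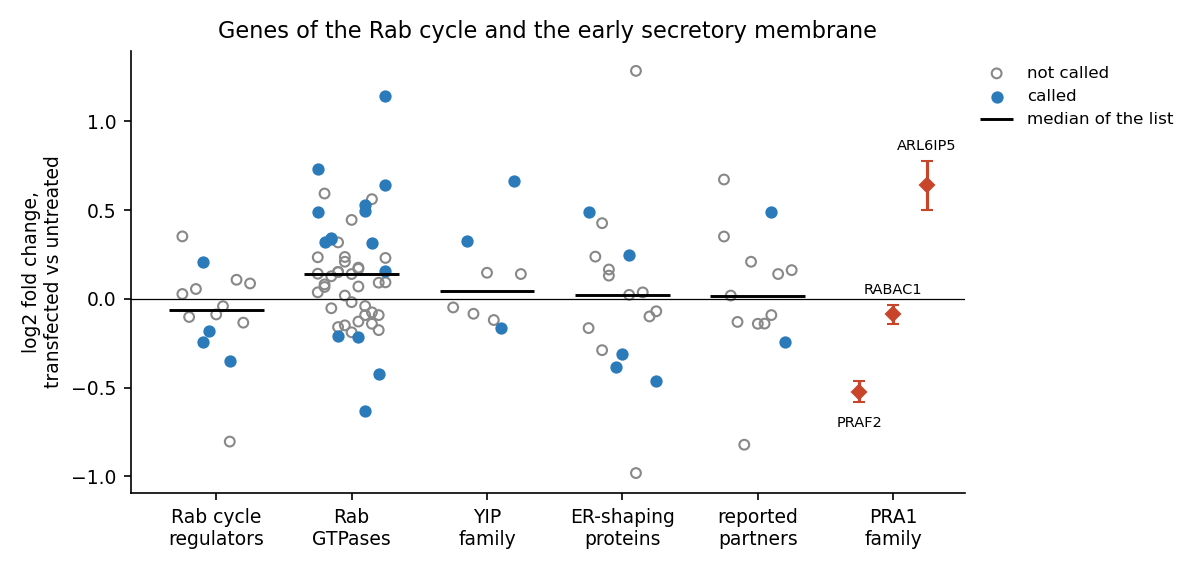
Log2 fold change of the transfected groups against untreated cells (vertical axis) for the tested genes of 5 lists and for the 3 PRA1 family genes (horizontal axis). Circles are genes, filled where the adjusted p is below 0.05, black lines are list medians, and diamonds with bars of 1 SE are the family members. PRAF2 at -0.52 and ARL6IP5 at 0.64 lie on either side of the list medians, which run from -0.07 to 0.14.

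Genes next to the family on the chromosomes mostly did not change with transfection. Around PRAF2, the overlapping WDR45 stood at 16.2 ± 0.795, 16.2 ± 1.37 and 15.1 ± 0.714 CPM in untreated, empty vector and FOXF1 plasmid libraries (log2 fold change -0.05, adjusted p = 0.742). GRIPAP1, TFE3, CCDC120 and GPKOW had 0.10, -0.10, -0.04 and 0.09 (adjusted p = 0.306, 0.222, 0.809 and 0.373). Around RABAC1, ZNF574 fell by 0.28 (adjusted p = 0.00121), and ARHGEF1 had -0.12 (0.158). CD79A and CTD-2575K13.6, with 6 to 44 reads per library, had -0.65 and -0.49 (0.364 and 0.332). Around ARL6IP5, UBA3, TMF1 and FRMD4B had 0.21, 0.06 and -0.32 (0.304, 0.809 and 0.738). GRIK5, RNU4-52P, MIR3136, LMOD3 and RBM43P1 had too few reads to be tested.

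The likeness of other genes to each member was measured as the root-mean-square difference between log2 CPM profiles over the 9 libraries, each centred on its own mean, among 7892 genes whose mean log2 CPM reached 3. Nearest to PRAF2 were S100A11 (0.0522), SPATC1L (0.0609), NDUFB10 (0.064), ARHGDIA (0.0661) and MDH2 (0.0691), where a flat profile would be at 0.296. S100A11 had 439, 270 and 332 CPM in untreated, empty vector and FOXF1 plasmid cells, the same order of groups as PRAF2. The number of genes with this order was not counted, and 3616 genes lay nearer to PRAF2 than a flat profile does. RABAC1 ranked 1813th in likeness to PRAF2, at 0.235. Nearest to ARL6IP5 were SPTLC1 (0.095), NCOA4 (0.11), TMEM165 (0.111), ADH5 (0.115) and GBAS (0.117), against 0.378 for a flat profile, and PRAF2 lay among the most distant at 0.662, rank 7831. Nearest to RABAC1 were SLC25A6, STOML2, VPS26B, SCRN2 and KIAA0195, at 0.0253 to 0.0305, against 0.0764 for a flat profile. All points share the same 9 libraries and their scaling.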

How the data were processed

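Per the submitters' processing notes, STAR 2.5.2b, HTSeq and bcl2fastq were used, with build GRCh38; the labels' protocols name a stranded mRNA library kit. The deposited values are raw counts per Ensembl gene and library, per the file headers. Not given in the sources used here are the strand setting and the annotation release. Coordinates and lengths are from GENCODE 29 on GRCh38, which holds 56591 of the 64253 identifiers.

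Genes were filtered with filterByExpr (minimum count 10), scaled by TMM and tested with edgeR 4.0.16 (R 4.3.3) by the quasi-likelihood F test on all 9 libraries, with a mean per group. P-values were adjusted by Benjamini-Hochberg over all genes tested, and genes were called at an adjusted p below 0.05. Each SE is |log2 fold change| over the root of F, and approximate intervals are 1.96 SE to either side. A gene without reads could have a level of up to 0.0751 to 0.0872 CPM (3 counts); intervals cover counting error only.

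The members and lists were chosen with earlier results of these data known. From each list the text names up to 3 called rises and 3 called falls of the transfection contrast whose mean log2 CPM reaches 1, 9 set genes, 3 neighbours on each side of a member and the 5 most alike genes. Alternatives were RLE, upper-quartile and no composition factors, DESeq2 1.42.0, limma-voom (limma 3.58.1), other filters, only the compared groups, a replicate block, GC and length offsets, no mitochondrial genes, and each library left out. The offsets used the 99.1% of tested genes with a GC content and length. Some genes that the rule names are not reported here.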

Additional observations from a re-analysis of the deposited data

How the results depend on the processing

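Between FOXF1 plasmid and empty vector, the number of genes called was 16 with RLE factors, 108 with DESeq2, 96 without a filter, 16 with a replicate block and 1 without mitochondrial genes and pseudogenes, against 9, and ran from 1 to 326 with a library left out. PRAF2 in that contrast left the called list at 0.34 with upper-quartile factors (adjusted p = 0.0553), 0.25 with scaling by library total alone, 0.34 without mitochondrial genes (0.199, over a list from which most other called genes are taken out) and 0.22 with GC and length offsets. It ran from 0.29 to 0.41 with a library left out. Scaling by library total alone called 5350 genes in the transfected groups, 6059 in empty vector and 2500 in FOXF1 plasmid cells over untreated, and GC and length offsets called 2125 in the last. With a library left out these counts ran from 1864 to 3566, from 2092 to 3897 (lowest without empty vector replicate 2) and from 817 to 1729, with 883, 817, 927 and 875 without untreated replicates 1 and 2 and FOXF1 plasmid replicates 2 and 3. RABAC1 with the empty vector against untreated cells was called with DESeq2 (-0.18), and ran from -0.18 to -0.12 with a library left out. ARL6IP5 with the FOXF1 plasmid against untreated cells was called at 0.63 with scaling by library total alone, 0.47 with DESeq2, 0.47 without a filter, 0.49 with a filter of 1 CPM in 3 libraries, 0.48 with only the groups compared, 0.48 with a replicate block and 0.42 with GC and length offsets, and ran from 0.30 to 0.61. RABGGTA turned from -0.18 to 0.017 and YIF1B from -0.16 to 0.034 with scaling by library total alone, which removes the composition factor. Within-library log2 ratios with a library left out ran from -0.49 to -0.40 for PRAF2 to RABAC1, -1.30 to -1.02 for PRAF2 to ARL6IP5 and -0.84 to -0.59 for RABAC1 to ARL6IP5, chosen after seeing the data. The cause of the other shifts was not tested.

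No pairing by replicate number was seen: none of 9 same-numbered pairs had deviations correlated above 0.1 (-0.0796 to 0.0748). That does not settle whether the libraries were paired. The replicate block changed no call of the 3 members beyond that of ARL6IP5. With only the groups compared the transfection contrast uses all libraries and was not rerun. ARL6IP5 has the fewest reads of the 3 members (176 to 480 per library), and SLC1A1, with 5 to 36, is limited by depth.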

Other observations

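RAB33B, a Golgi Rab outside the rule for named genes and singled out after its values were seen, had the highest fold change of the Rab GTPases called on transfection, 1.14 on the log2 scale, from 10 to 53 reads per library. SLC1A1 had 36, 5 and 33 reads in FOXF1 plasmid, 33, 31 and 33 in empty vector and 21, 11 and 15 in untreated replicates, so FOXF1 plasmid replicate 2 was the lowest library of all 9. The same library had the lowest ARL6IP5 level and the highest PRAF2 level of its group.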
